A study of Mus musculus with 9 samples.

Results

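The STAT and IRF transcription factors that act at the end of interferon signalling were followed in mouse kidney through 8 genes, Stat2, Stat3, Irf1, Irf2, Irf5, Irf7, Irf8 and Irf9. They were chosen by name from the 54532 genes of the count tables, with earlier results of these data known. All 8 passed the filter on low counts that left 16646 genes for testing. PolyA+ RNA was sequenced from kidneys in 3 groups of 3 libraries, all of the C57BL/6J background by their labels. The groups were wild-type mice (WT), Trex1-/- mice administered PBS over 2 weeks, and Trex1-/- mice that received SN-011 over 2 weeks. No administration is recorded for WT. SN-011 blocks STING, which relays the signal of the cytosolic DNA sensor cGAS, and TREX1 is the exonuclease that removes DNA from the cytosol. By the study's methods the Trex1-/- mice came from heterozygous matings and were 1 month old at the start. SN-011 was given intraperitoneally each day at 10 mg/kg, and the WT mice came from a separate source. Genotype, source of the animals and administration thus cannot be told apart between WT and Trex1-/- mice. The deletion is shared by both Trex1-/- groups, and each value is a mean over the cell types of the kidney.

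Type I interferon acts through a receptor whose kinases, JAK1 and TYK2, phosphorylate STAT proteins. STAT2 pairs with another STAT and with IRF9 to form ISGF3, the complex that binds the interferon-stimulated response element (ISRE) of genes such as Isg15 and Mx1. IRF7 is an ISGF3 target that in turn activates the interferon alpha genes, which makes it the amplifying step of the response. IRF1 activates and IRF2 mostly represses promoters with the same core letters, IRF8 and IRF5 are used by myeloid and B cells, and STAT3 carries signals of the interleukin-6 family to the interferon-gamma activated site (GAS).

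The libraries held 16118813 to 21928965 counts. Kidney identity was clear from 13 markers of tubule, glomerulus and endothelium, led by Slc34a1 and Umod, which together reached 16653 to 20265 CPM (counts scaled to a common library size) and none of which was at 0. Trex1 itself was listed at 0 in all 9 libraries, WT included, and all 1147 of its exon bases are shared with Atrip on the same strand, so its count checks no label. Atrip was at 14.4 to 16.1 CPM in WT, 40.3 to 48.5 with PBS and 37.1 to 37.6 with SN-011. The origin of this difference was not tested. Sex-linked reads divided the libraries in a way the labels do not state. Genes of the Y chromosome were read in WT replicate 3, in all 3 PBS libraries and in SN-011 replicate 2, and were nearly or fully absent from the other 4. Values within those classes are given where they change a result. Replicates are separate libraries by their labels, which do not say that each is a separate animal, so the p-values measure the spread between libraries.

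The promoters of 4 of the members carry the letters that STAT and IRF proteins read, and these stretches are shown because the letters in them are those bound by the proteins that the group itself encodes. Each stretch lies upstream of the RefSeq start on GRCm38.p6, is written 5′ to 3′ on the gene's strand, and has the matches to ISRE (GAAA, any 2 bases, GAAA) and GAS (TTC, any 3 bases, GAA), searched on both strands, in capitals.
Stat2 (chr10:128270251-128270310, plus strand; ISRE): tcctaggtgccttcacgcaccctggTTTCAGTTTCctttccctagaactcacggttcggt
Irf2 (chr8:46739495-46739554, plus strand; ISRE, then GAS): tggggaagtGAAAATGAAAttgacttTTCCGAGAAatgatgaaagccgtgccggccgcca
Irf1 (chr11:53769899-53769957, plus strand; GAS): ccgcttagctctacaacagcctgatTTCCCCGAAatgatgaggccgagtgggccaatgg
Irf8 (chr8:120736162-120736238, plus strand; GAS at 2 places): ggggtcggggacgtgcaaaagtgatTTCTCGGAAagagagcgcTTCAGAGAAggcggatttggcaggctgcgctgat

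The Stat2 match began 222 bases before the start and the Irf1 match 90 bases before it. In Irf2 the ISRE letters began 241 and the GAS letters 224 bases before the start, and in Irf8 the GAS letters began 171 and 153 bases before it. All 8 members had a promoter window of 300 bases in the reference table (250 before the start and 50 after), and the letters of neither element were found in the windows of Stat3, Irf5, Irf7 and Irf9. ISRE letters thus stood in 2 of 8 members and in 3.99% of all 27025 genes with a window, and GAS letters in 3 of 8 members and in 9.55% of genes. Counted by window, some genes having several, the shares were 3.44% and 8.30% of 32851. Among 6 further STAT and IRF genes with a window, 1 had ISRE letters (Stat4) and 0 had GAS letters. The letters did not sort the members by their response in the kidney, since Stat2 rose in Trex1-/- kidney while Irf2, with both elements, was not called, and Irf7 and Irf9 rose without a match in this window.

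The first comparison, Trex1-/- with PBS against WT, joins loss of TREX1 with source of the animals and PBS administration. Stat2, Irf9, Irf7 and Irf1 rose, from 1.82-fold for Irf9 to 8.46-fold for Irf7, and the other 4 members did not pass the test. The 4 that rose of 8 compare with 1.44% of all genes tested called higher (1.88% in either direction), at an adjusted p under 0.05 in edgeR's quasi-likelihood test. All 8 fitted changes were above 0, with a median log2 fold change of 0.68 against 0.00 over all genes tested. In 7 of 8 members every PBS library was above every WT library, a pattern found in 13.1% of genes.

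**Figure D1:**
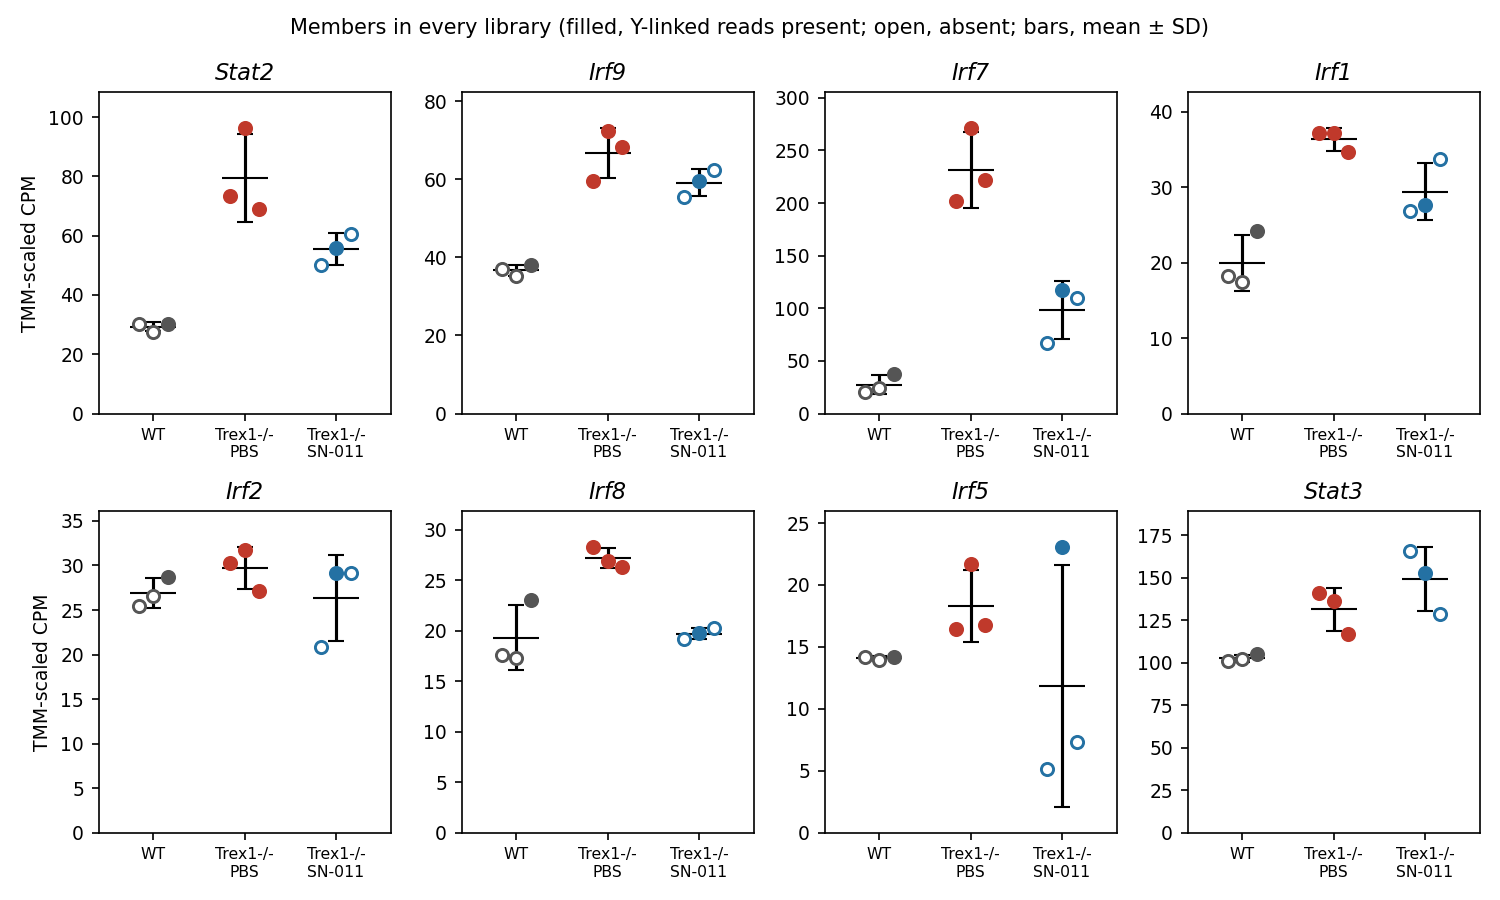
Level of each member (TMM-scaled CPM, y axes starting at 0) in the 3 libraries of each group, with the group mean and SD as bars; filled points are libraries with Y-linked reads and open points are libraries without. The PBS points of Irf7 sit between 202 and 272 CPM against 20.8 to 37.4 in WT, and the SN-011 points of Irf5 split into 1 high library and 2 low ones.

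Stat2 and Irf9 encode the subunits by which ISGF3 enters the nucleus and finds DNA. Stat2 (ENSMUSG00000040033) was at 30.1, 27.5 and 30.3 CPM in WT and at 73.3, 96.4 and 68.9 in PBS libraries. The lowest PBS library was above the highest WT library by more than 30 CPM, and the log2 fold change was 1.44 (SE 0.13, adjusted p = 0.000334, edgeR). Irf9 (ENSMUSG00000002325) was at 37.0, 35.2 and 38.0 CPM in WT and at 59.6, 72.3 and 68.2 in PBS libraries. The groups did not overlap, and its change of 0.86 on the log2 scale (SE 0.09, adjusted p = 0.000784, edgeR) was smaller than that of Stat2. Stat2 and Irf9 were called under all 19 alternatives that keep at least 2 libraries in each group. Exons of Irf9 share 2.28% of their bases with Rnf31 on the same strand, which itself rose by 0.49 (adjusted p = 0.0284, edgeR).

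Irf7 (ENSMUSG00000025498), the amplifier, moved most. It was at 20.8, 24.1 and 37.4 CPM in WT and at 202, 272 and 222 in PBS libraries. Mean levels were 27.4 ± 8.77 and 232 ± 35.9 CPM (SD, n = 3), and the log2 fold change of 3.08 (SE 0.27, adjusted p = 0.000237, edgeR) was the 22nd smallest p and the 31st largest rise of the 16646 genes. The WT library with Y-linked reads was the highest of its group, and against it alone the change was 2.63 in a fit of the 5 libraries with such reads, an analysis added after the data were seen. Irf7 was called under the same 19 alternatives.

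Irf1 and Irf2 encode the activator and the repressor of one core element, and whether they differ in their change was not tested. Irf1 (ENSMUSG00000018899) was at 18.3, 17.5 and 24.2 CPM in WT and at 37.3, 37.2 and 34.6 in PBS libraries, with no overlap. The rise came to 0.87 on the log2 scale (SE 0.14, adjusted p = 0.00945, edgeR). The call was lost without WT replicate 1 (0.0626) or replicate 2 (0.0539), without PBS replicate 1 (0.0505) or replicate 2 (0.0531), and with a term for Y-linked reads (0.0501), while the change in these fits stayed between 0.77 and 0.84. Against the only WT library with Y-linked reads the change was 0.58, a value with no spread of its own in the WT arm. Irf2 (ENSMUSG00000031627) was at 25.5, 26.6 and 28.8 CPM in WT and at 30.3, 31.8 and 27.2 in PBS libraries, which overlap. Its change was 0.14 (95% interval -0.15 to 0.44, adjusted p = 0.662, edgeR), and no alternative called it.

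Irf8 and Irf5 are the members most tied to immune cells in their usual expression. Irf8 (ENSMUSG00000041515) was at 17.6, 17.3 and 23.1 CPM in WT and at 28.3, 27.0 and 26.4 in PBS libraries. Every PBS library was higher, yet the log2 change of 0.50 (95% interval 0.23 to 0.76) had an adjusted p of 0.0682 in edgeR, and 5 of the 19 alternatives called it. With a term for Y-linked reads the change was 0.36 (adjusted p = 0.281), and against the 1 WT library with such reads it was 0.24. Irf5 (ENSMUSG00000029771) was at 14.2, 13.9 and 14.2 CPM in WT and at 16.4, 21.7 and 16.8 in PBS libraries. Its change of 0.38 carried a wide interval (95% interval -0.56 to 1.32, adjusted p = 0.722, edgeR), and with a term for Y-linked reads its sign turned (-0.34). In WT, Irf5 was at 14.2 CPM with Y-linked reads and at a mean of 14.1 without, and all PBS libraries had such reads. The term thus took its size from the SN-011 libraries, at 23.1 CPM with such reads and 5.16 and 7.30 without. Of its exon bases, 14.1% are shared with Tnpo3 on the opposite strand, which was at 60.0 to 70.8 CPM over all libraries, and the strand setting of the counting was not given in the sources used here.

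Stat3 (ENSMUSG00000004040), which serves the interleukin-6 family more than interferon, was at 101, 102 and 105 CPM in WT and at 141, 137 and 117 in PBS libraries. Every PBS library was higher, but the change of 0.36 on the log2 scale (95% interval 0.11 to 0.60) had an adjusted p of 0.157 in edgeR and was called under 0 of the 19 alternatives.

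Markers of immune cells moved beside the members. The 14 macrophage markers, led by Csf1r, summed to 255 to 282 CPM in WT, 383 to 416 in PBS and 250 to 352 in SN-011 libraries. All 14 were above 0 in log2 fold change between PBS and WT, and 4 of them were called (C1qa, C1qb, C1qc and Fcgr1). The 8 T and NK cell markers summed to 5.38 to 7.64 CPM in WT and 13.4 to 22.9 in PBS libraries, and 1 of the 6 tested was called (Cd4). Sums for the 9 dendritic cell markers (21.1 to 23.5 against 23.3 to 25.7 CPM) and the 5 neutrophil markers (0.59 to 4.22 against 2.86 to 7.73 CPM) had no called gene, although all 4 tested neutrophil markers were above 0 with a median log2 fold change of 1.78, larger than the 0.84 of the macrophage list. B cell markers were low in every library (0.85 to 3.79 CPM). Of the 13 kidney markers 10 were below 0 with a median of -0.20, and 1 was called, the tubular glucose transporter Slc5a2, at 359 to 417 CPM in WT and 225 to 255 in PBS libraries. All 4 fat markers were below 0 with a median of -0.88 and 0 called, at sums of 119 to 285 CPM in WT and 86.8 to 153 in PBS libraries. The part of these cells in the levels of the members was not tested, and in whole kidney more cells of a type and more RNA per cell cannot be told apart.

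The second comparison sets SN-011 beside PBS within Trex1-/- kidney and asks what STING antagonism does to the factors once TREX1 is lost. No member was called, as for all genes tested (0 of 16646, or 0% at an adjusted p under 0.05, edgeR). At an unadjusted p under 0.05 there were 4 of 8 members and 11.4% of genes. In 4 members, Stat2, Irf1, Irf7 and Irf8, every SN-011 library was below every PBS library, a pattern found in 8.41% of genes. Fitted changes were below 0 in 7 of 8 members, with a median of -0.38 against -0.01 over all genes, and Stat3 was the exception.

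Irf7 was at 66.9, 118 and 110 CPM with SN-011, so that its highest library was far below the lowest PBS library (202 CPM). The log2 change was -1.24 (95% interval -1.79 to -0.69, adjusted p = 0.203, edgeR). Irf7 passed in the Wald test of DESeq2 (adjusted p = 0.000227), in edgeR's exact test (0.00240), when the filter on low counts was dropped (0.00116) and without SN-011 replicate 2 (0.0263), and over all alternatives its adjusted p ran from 0.000227 to 0.650. In the fit without SN-011 replicate 2 treatment coincides with the class by Y-linked reads. The call on Irf7 thus rested on the test, the filter and 1 library. The 14 macrophage markers were also all below 0 in this comparison, with 0 called, and the T and NK cell markers summed to 5.67 to 15.9 CPM with SN-011, with all 6 tested below 0. Of the dendritic cell markers 5 of 7 tested were above 0 (sums of 25.5 to 27.8 CPM), as were 3 of 4 neutrophil markers (3.80 to 9.50 CPM), while 3 of 4 fat markers were below 0 (101 to 119 CPM), with 0 called in each list. Their part was not tested.

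Stat2 was at 49.98, 55.9 and 60.6 CPM with SN-011, all below the PBS libraries, with a change of -0.52 (95% interval -0.81 to -0.23, adjusted p = 0.241, edgeR). The Wald test of DESeq2 called it (adjusted p = 0.0464), the second member called by that test beside Irf7, and no other alternative did. Irf8 was at 19.2, 19.8 and 20.2 CPM, a narrow range inside that of WT, with a change of -0.46 (95% interval -0.72 to -0.20, adjusted p = 0.241, edgeR). Irf1 was at 26.8, 27.7 and 33.8 CPM, between the WT and PBS libraries, with a change of -0.31 (95% interval -0.61 to -0.00, adjusted p = 0.434, edgeR). Irf9 was at 55.4, 59.6 and 62.3 CPM, overlapping the PBS libraries, with a change of -0.17 (95% interval -0.38 to 0.03, adjusted p = 0.498, edgeR). Of the ISGF3 genes, the SN-011 libraries of Stat2 stood apart from PBS and those of Irf9 overlapped it, and whether the 2 genes differ in their change was not tested.

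Irf5 behaved unlike the rest. It was at 5.16, 23.1 and 7.30 CPM with SN-011, with replicate 2 above all 8 other libraries and replicates 1 and 3 below all 7 others. Replicate 2 was the one with Y-linked reads. Within the group it also stood apart over all genes, with a correlation of log CPM of 0.967 and 0.966 with replicates 1 and 3, against 0.983 between those. The change against PBS was -0.63 (95% interval -1.58 to 0.32, adjusted p = 0.611, edgeR), and without replicate 2 it was -1.56 (adjusted p = 0.00479). That fit sets 3 PBS libraries with Y-linked reads against 2 SN-011 libraries without them, so treatment and sex-linked class cannot be told apart in it. Against WT it was -0.25 (adjusted p = 0.804), and without replicate 2 it was -1.18 (adjusted p = 0.0113). Among the 4 libraries without Y-linked reads, 2 of WT and 2 of SN-011, it was also -1.18, a value that rests on the same 2 low SN-011 libraries and was computed after their split was seen. Tnpo3, which overlaps Irf5, was at 70.8, 62.9 and 61.1 CPM in the same SN-011 libraries and did not follow this split. The 3 genes with the most similar pattern, looked up after this split was seen, were Apold1, Cckar and Arsg. Their root mean square differences from Irf5 in gene-centred log2 CPM were 0.22, 0.23 and 0.24.

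Stat3 and Irf2 completed the comparison. Stat3 was at 166, 153 and 129 CPM with SN-011, with 2 of 3 libraries above every PBS library and a change of 0.18 (95% interval -0.06 to 0.43, adjusted p = 0.557, edgeR). Irf2 was at 20.8, 29.2 and 29.2 CPM, overlapping the PBS libraries (27.2 to 31.8), with a change of -0.17 (95% interval -0.47 to 0.13, adjusted p = 0.665, edgeR).

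**Figure D2:**
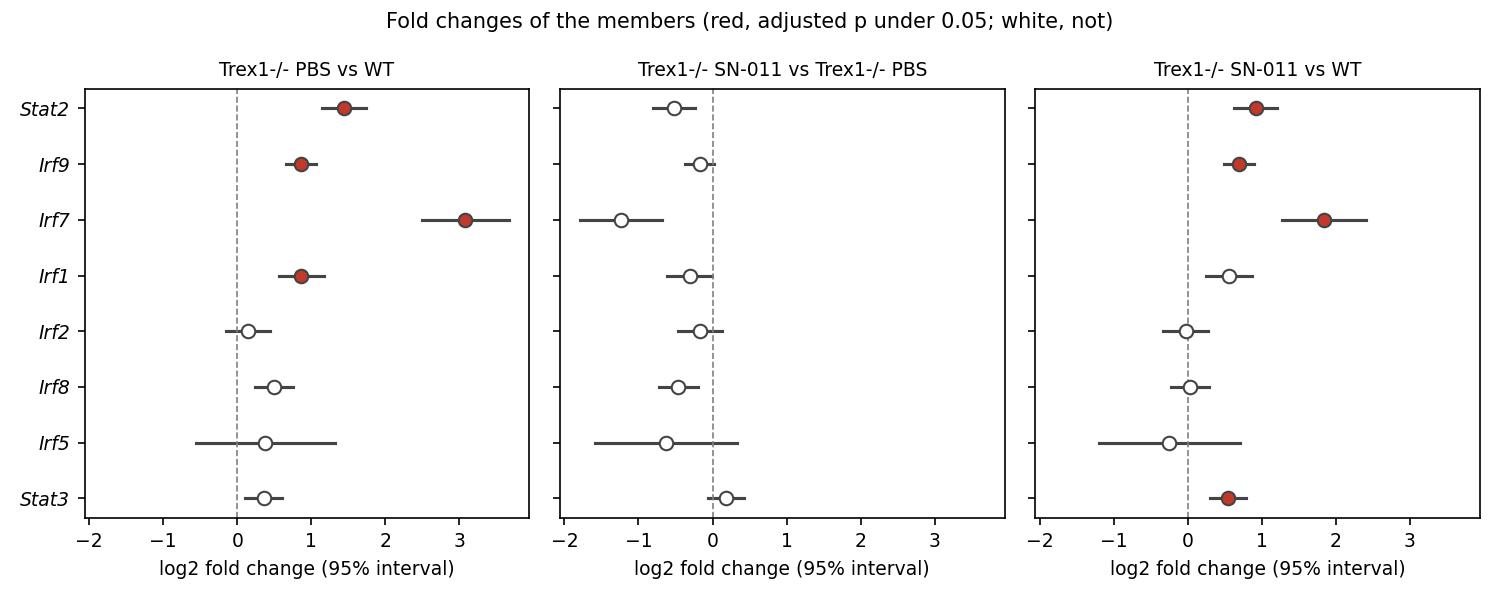
Fitted log2 fold change of each member with its 95% interval in the 3 comparisons; red points have an adjusted p under 0.05 and white points do not. Red points are 4 in Trex1-/- PBS vs WT, 0 in SN-011 vs PBS and 4 in SN-011 vs WT, and the intervals of Irf5 are the widest in each panel.

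The third comparison, SN-011-treated Trex1-/- kidney against WT, asks how far the factors still differed from WT. Stat2, Irf7, Irf9 and Stat3 were higher, 4 of 8 against 0.823% of genes called higher (1.28% in either direction). In 5 members every SN-011 library was above every WT library, a pattern found in 11.8% of genes. This comparison shares its libraries with the other 2, so its calls are not independent of them. All 6 tested T and NK cell markers (median log2 fold change 1.04), all 4 tested neutrophil markers (1.81) and 11 of 14 macrophage markers (0.38) were above 0, and all 4 fat markers (-1.14) were below 0, with 0 called in each list. Their part in the levels of the members was not tested.

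Irf7 was still 3.59-fold above WT (log2 1.84, SE 0.25, adjusted p = 0.0103, edgeR), Stat2 1.89-fold (log2 0.92, SE 0.13, adjusted p = 0.0110) and Irf9 1.61-fold (log2 0.69, SE 0.09, adjusted p = 0.00908). Without WT replicate 1 or 2 no member was called, with adjusted p of 0.0572 and 0.0562 for Irf7, 0.0572 and 0.0637 for Stat2 and 0.0533 and 0.0541 for Irf9, while the sizes of these changes stayed between 0.65 and 1.76 on the log2 scale. In the 4 libraries without Y-linked reads, 2 of each group, 5 members were called beside 461 genes in all. The members were Irf7, Stat2, Irf9 and Irf1 at changes of 1.98, 0.94, 0.70 and 0.76 and Irf5 at -1.18. Among libraries with such reads 1 SN-011 library stands against 1 WT library, and the changes of Irf7, Stat2 and Irf9, 1.68, 0.90 and 0.67, are given as values only. With only the 6 libraries of the comparison Irf7 had an adjusted p of 0.0508. Stat3 was 1.45-fold above WT (log2 0.54, SE 0.11, adjusted p = 0.0479), a call lost in 12 of the 20 alternatives with at least 2 libraries in each group. Irf1 lay at 0.56 (95% interval 0.25 to 0.87, adjusted p = 0.0847, edgeR), with every SN-011 library above every WT library, and 6 of those 20 alternatives called it. Irf8 (0.03, adjusted p = 0.920) and Irf2 (-0.03, adjusted p = 0.938) had intervals of -0.23 to 0.29 and -0.33 to 0.27.

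Levels can be set side by side between genes once they are divided by exon length. In WT, Stat3 was highest at 10.8 CPM per kb, followed by Irf7 (7.26), Irf9 (6.82), Irf1 (5.03), Stat2 (4.94), Irf5 (4.85), Irf2 (3.64) and Irf8 (2.74). The ranges of neighbours overlapped for Irf7 with Irf9, Irf1 with Stat2 and Stat2 with Irf5. In PBS libraries Irf7 led at 61.4 CPM per kb, clear of Stat3 (13.8), Stat2 (13.4) and Irf9 (12.4), which overlapped one another in that order, and Irf1 (9.15), Irf5 (6.30), Irf2 (4.02) and Irf8 (3.86) followed. With SN-011 Irf7 again led at 26.0 CPM per kb, ahead of Stat3 (15.7), Irf9 (10.97) and Stat2 (9.36), and every later neighbour overlapped the next. Irf7 was thus at rank 2 in WT, or rank 4 when the longest transcript set the length, and at rank 1 in both Trex1-/- groups by either length.

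**Figure D3:**
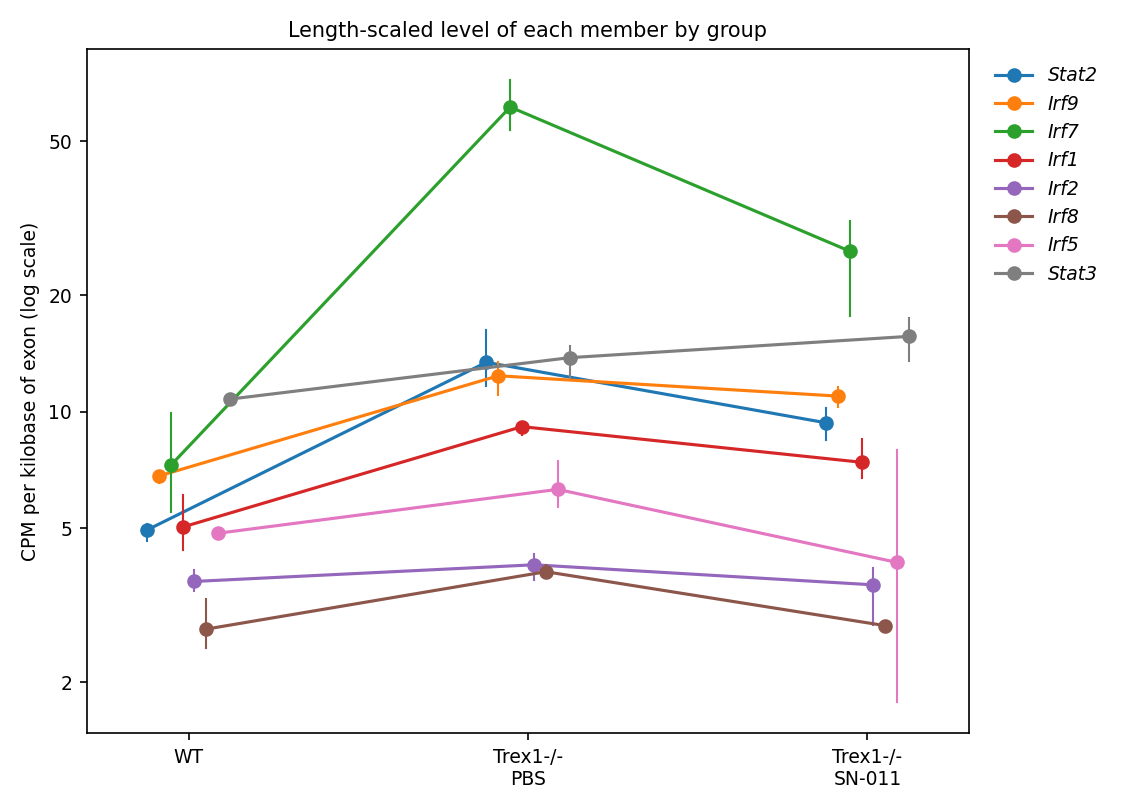
Mean level of each member in CPM per kilobase of exon (log axis) in the 3 groups, with vertical lines from the lowest to the highest library. Irf7 goes from 7.26 in WT to 61.4 with PBS and 26.0 with SN-011, while Irf2 stays between 3.57 and 4.02.

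Differences between members of the same library do not depend on how libraries are scaled to each other. On the log2 scale of CPM per kb, Irf7 minus Irf9 was -0.32, -0.03 and 0.49 in WT, 2.27, 2.42 and 2.21 with PBS, and 0.79, 1.49 and 1.33 with SN-011. The 3 groups did not overlap, with SN-011 between the others. Stat2 minus Stat3 was -1.06, -1.21 and -1.10 in WT, -0.26, 0.18 and -0.08 with PBS, and -1.04, -0.77 and -0.40 with SN-011. Here too the groups did not overlap, though SN-011 replicate 1 lay next to WT. Irf1 minus Irf2, activator over repressor, was 0.42, 0.30 and 0.65 in WT, 1.19, 1.12 and 1.24 with PBS, and 1.26, 0.82 and 1.10 with SN-011. This difference was higher in both Trex1-/- groups than in any WT library, and the 2 Trex1-/- groups overlapped.

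**Figure D4:**
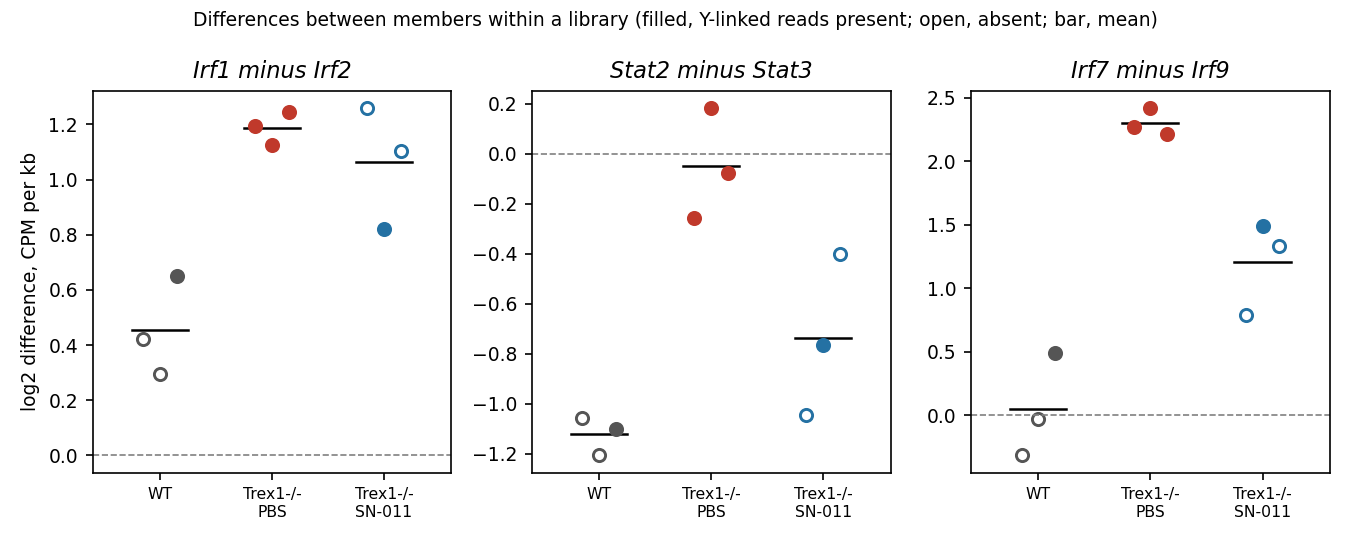
Difference between 2 members within each library (log2 of CPM per kilobase) for Irf1 minus Irf2, Stat2 minus Stat3 and Irf7 minus Irf9; filled points are libraries with Y-linked reads, open points are libraries without, and the bar is the mean. SN-011 libraries lie between WT and PBS for Irf7 minus Irf9 (0.79 to 1.49) and overlap PBS for Irf1 minus Irf2 (0.82 to 1.26).

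The genes most like each called member over the 9 libraries were found by the root mean square (RMS) difference between gene-centred log2 CPM, among 14840 genes. For Irf7 the closest was Isg15 (0.08), a ubiquitin-like protein of the antiviral response, followed by Mx2 (0.18) and Zbp1 (0.19). Isg15 was at 4.90, 6.05 and 8.85 CPM in WT, 49.6, 76.7 and 59.4 with PBS, and 17.8, 30.1 and 29.2 with SN-011, the same order of libraries within each group as Irf7. For Stat2 the closest were the RNA sensors Ddx58 (0.09) and Ifih1 (0.11) and the antiviral gene Zc3hav1 (0.11). For Irf1 they were Nckap1l (0.08), a cytoskeletal gene of blood cells, the peptide transporter Tap2 (0.10) and Trafd1 (0.11), and for Irf9 Nckap1l (0.11), Ifi35 (0.11) and Tent5a (0.11). The RMS is a description with no test.

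The genes upstream of the factors are given by their counts, and with 1.88% of all genes called in Trex1-/- PBS against WT, 0 calls in lists of 5 to 12 genes say nothing particular to them. Of 20 interferon ligand genes none had enough reads to be tested, and their reads summed over 3 libraries were 1 in WT, 8 with PBS and 16 with SN-011, from Ifnk, Ifng and Ifnl3. Of 11 receptor and kinase genes 0 were called in Trex1-/- PBS against WT, with a median log2 fold change of 0.09. The smallest p were those of Il10rb (-0.24, adjusted p = 0.389) and Ifngr2 (0.18, adjusted p = 0.438, edgeR). Of 12 genes that activate IRF proteins, STING (Tmem173) among them, 0 were called, with Myd88 (0.25, adjusted p = 0.252) and Tbk1 (0.24, adjusted p = 0.294, edgeR) lowest in p. Of 5 tested further STAT and IRF genes 0 were called, with Stat5b (0.29, adjusted p = 0.136) and Stat5a (0.29, adjusted p = 0.352, edgeR) lowest in p. Irf3, the factor that STING activates by phosphorylation, was at 61.9, 69.8 and 56.5 CPM in WT, 60.1, 65.3 and 63.7 with PBS and 76.2, 74.8 and 71.6 with SN-011. Every SN-011 library was above every WT library, a pattern found in 11.8% of genes. Of the 5 tested genes of this list, Irf3 included, 0 were called in either comparison with SN-011. RNA levels say nothing of the phosphorylation by which Irf3 and the STAT proteins are switched on.

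Downstream, 2 of 3 target lists held genes that rose. The lists were chosen with earlier results of these data known, so their counts describe the data and test nothing. Of 22 ISGF3 targets 21 rose in Trex1-/- PBS against WT, with a median of 2.38, led by the GTPase Mx1 (4.13) and the oligoadenylate synthetase Oas3 (3.87), and Isg20 was the gene not called (1.26, adjusted p = 0.0590, edgeR). Of 17 tested GAS and IRF1 targets 13 rose, with a median of 1.58, led by the chemokine Cxcl9 (3.89) and the GTPase Iigp1 (2.32). Of 18 tested STAT3 targets 0 were called and the median was 0.13, with Cebpd (-1.22, adjusted p = 0.0539) and Bcl3 (0.59, adjusted p = 0.0804, edgeR) lowest in p, but 3 were called without WT replicate 3 and 1 without SN-011 replicate 2 or 3. In SN-011 against WT 1 STAT3 target was called, Myc (0.92, adjusted p = 0.0408, edgeR), and that count ran from 0 to 3 with 1 library left out. Of 16 inhibitors of the pathway Usp18, which blocks signalling at the interferon receptor, rose by 2.78 (adjusted p = 7.59e-05, edgeR) and the STAT5-induced inhibitor Cish fell by 1.17 on the log2 scale (adjusted p = 0.0484). The 2 calls of this list became 1 without WT replicate 1 or 2, any PBS replicate or SN-011 replicate 3, and 3 without SN-011 replicate 2.

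With SN-011 against PBS all 22 ISGF3 targets and all 17 GAS and IRF1 targets had changes below 0, with medians of -0.82 and -0.56, and 0 of either list were called by edgeR's quasi-likelihood test. The DESeq2 Wald test called 15 and 3 of them beside 183 genes in all, and edgeR's exact test 11 and 2 beside 127. The quasi-likelihood test itself called 9 and 1, beside 519 genes in all, without SN-011 replicate 2, where treatment and Y-linked class coincide. Against WT, 19 ISGF3 targets and 8 GAS and IRF1 targets were still higher, with medians of 1.47 and 0.93, beside 213 genes called in all. Without WT replicate 1 the counts of these lists were 8 and 1, beside 38 genes in all. In the promoter windows, ISRE letters stood in 10 of the 17 ISGF3 targets that have one, in 6 of 13 GAS and IRF1 targets and in 1 of 15 STAT3 targets. GAS letters stood in 5, 4 and 4 of them, and the members themselves, with 2 and 3 of 8, held ISRE letters less often than the ISGF3 targets in these counts, a difference that was not tested.

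**Figure D5:**
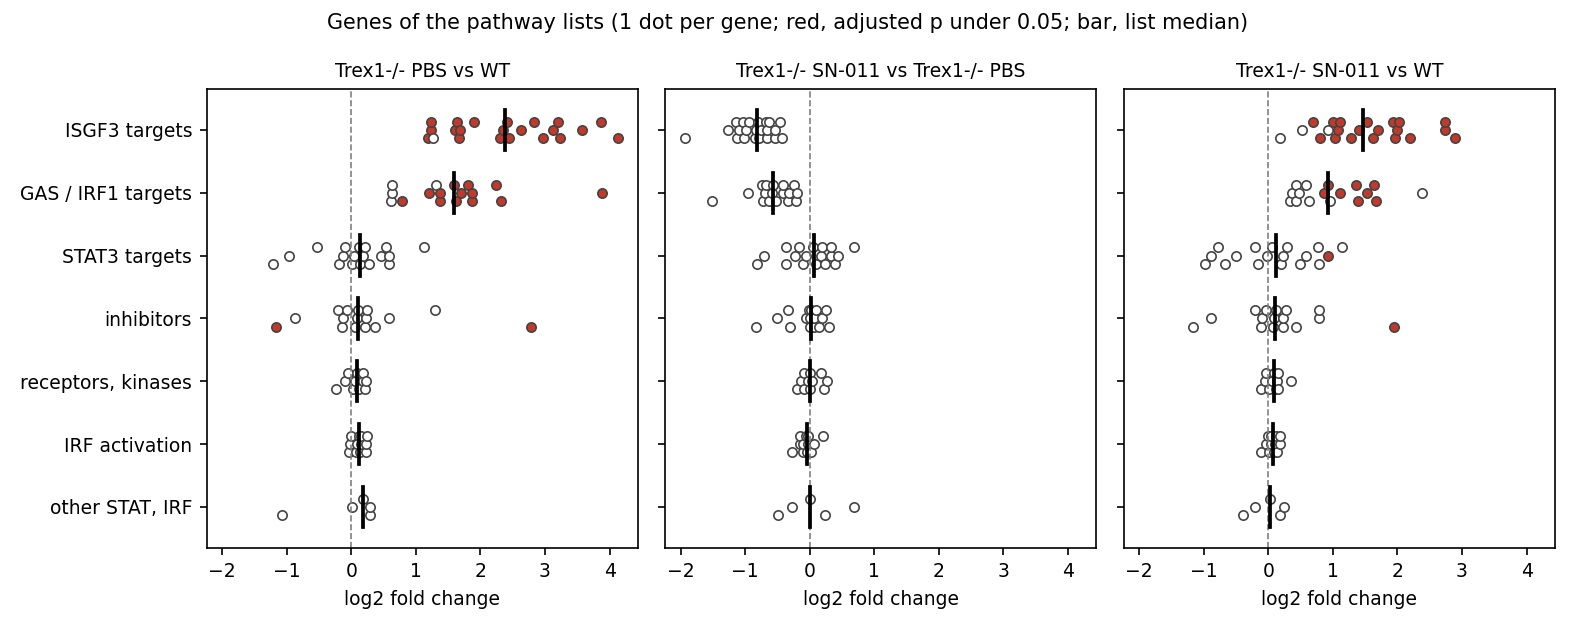
Log2 fold change of each tested gene of 7 pathway lists in the 3 comparisons, 1 dot per gene (red, adjusted p under 0.05) with a bar at the list median. The ISGF3 targets have a median of 2.38 in Trex1-/- PBS vs WT and -0.82 in SN-011 vs PBS, while the medians of the receptor, activator and STAT3 target lists lie between -0.05 and 0.13 in every panel, with single STAT3 targets from -1.22 to 1.14.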

How the data were processed

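PolyA+ RNA of 9 kidney libraries was aligned by the authors with HISAT2 to mm10, per the labels, and the deposited values are raw read counts per gene made with featureCounts, whose versions and strand setting are not given in the sources used here. Symbols, positions and exon lengths came from GENCODE vM21 (GRCm38), which matched 54495 of 54532 gene identifiers, and promoter sequences from RefSeq on GRCm38.p6. In R 4.3.3, genes were kept by filterByExpr (minimum count 10, total 15), scaled by TMM and fitted with edgeR 4.0.16 in 1 quasi-likelihood model of all 9 libraries with 3 group means alone. Tests were two-sided, with Benjamini-Hochberg adjustment over 16646 genes and calls at 0.05. Intervals at 95% follow from the fit. CPM are TMM-scaled, log2 CPM use a prior count of 2, and the scripts were tested on simulated data.

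Members and lists were chosen with earlier results of these data known. Named genes were all members, the 3 genes most like each member called in Trex1-/- PBS against WT, among genes of at least 1 mean CPM, the highest markers, and, per list, the 2 called genes with the largest rise and fall or, with none called, the 2 with the smallest p. C1qa, C1qb, C1qc, Fcgr1, Cd4, Slc5a2, Isg20, Irf3, Tmem173, Myc, Stat4, Atrip, the genes most like Irf5 and the genes that overlap members were named outside that rule, after their values were seen. Some further genes of these families are not reported here. Alternatives were DESeq2 1.42.0 size factors, upper-quartile factors, 2 other count filters, the Wald test of DESeq2, limma-voom (limma 3.58.1), edgeR's exact test, the 6 libraries compared, a replicate block, a Y-linked term and leaving out each library. 2 fits by Y-linked class were added after seeing the data; the one with Y-linked reads holds 1 WT and 1 SN-011 library and takes its spread from 3 PBS libraries. Protein sequences were not analysed here.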

Additional observations from a re-analysis of the deposited data

How the results depend on the processing

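In Trex1-/- PBS against WT, 4 members and 313 genes were called. The count of genes was 707 without the filter on low counts, 726 by the DESeq2 Wald test, 683 by edgeR's exact test, 751 with only the 6 libraries compared, 198 with the Y-linked term and 153 to 774 when 1 library was left out (153 to 162 without WT replicate 1 or 2 or PBS replicate 1 or 2, and 774 without SN-011 replicate 2), and the members called then ranged from 3 to 5. Fits of libraries with Y-linked reads hold 1 WT and 1 SN-011 library, which are assumed to vary like the 3 PBS libraries, so their counts say nothing of stability. In SN-011 against PBS, 0 members and 0 genes were called. Without the filter these were 1 and 127, by the Wald test 2 and 183, by the exact test 1 and 127, in libraries with Y-linked reads 0 and 107, and with 1 library left out 0 to 2 and 0 to 519, the latter without SN-011 replicate 2, where treatment and Y-linked class coincide, beside 22 without replicate 3 and 1 without PBS replicate 2. In SN-011 against WT, 4 members and 213 genes were called. The genes were 607 without the filter, 816 by the Wald test, 601 by the exact test and 656 with the Y-linked term. With only the 6 libraries compared 2 members and 43 genes were called, in libraries with Y-linked reads 1 and 356, in libraries without them 5 and 461, and with 1 library left out 0 to 4 members and 38 to 376 genes, with 38 and 48 genes and no member without WT replicates 1 and 2, 102 to 124 without a PBS replicate and 376 without SN-011 replicate 2. The cause of these shifts was not tested, except that some of these fits hold fewer libraries.

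Signs turned only in changes that were not called. For Irf5 the log2 change became -0.34 with the Y-linked term against WT (PBS), 0.36 in libraries with Y-linked reads (SN-011 against PBS), and, in SN-011 against WT, 0.72 in libraries with Y-linked reads and -1.18 to 0.11 with 1 library left out. In that comparison Irf2 ran from -0.11 to 0.12 with 1 library left out and was 0.041 in libraries with Y-linked reads, and Irf8 ran from -0.045 to 0.17 and was -0.20. Of 488 member changes computed under alternatives, 430 kept their direction and their side of the threshold, 28 lost and 19 gained a call, and 11 turned sign. The lengths used matter for levels between genes, since all 8 PBS levels per kb moved by more than 1 SD with the longest transcript as length, and with the 250 bases before the start the share of promoters with ISRE letters was 2.98% and with GAS letters 7.02%.

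The labels do not say whether replicate numbers pair the libraries. Correlations of the deviations of same-numbered libraries ran from -0.29 to 0.24. They were 0.20, 0.24 and 0.10 between SN-011 and PBS, and 0.24, -0.29 and -0.14 between SN-011 and WT. With 3 libraries per group and the sex-linked split they cannot decide whether pairs exist. With a replicate block 4, 0 and 4 members and 312, 0 and 231 genes were called in the order of comparisons above, and no call of a member changed. Groups of 3 libraries, the sex-linked split, the separate source of WT mice and their lack of a recorded administration limit what these comparisons can resolve. Genes with few reads, the interferon ligands among them, could not be compared at this depth.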
